A study of Mus musculus with 15 samples.

Results

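The genes described here encode the route by which liver mitochondria burn fatty acids, from uptake and activation to the carnitine shuttle, the β-oxidation spiral, electron transfer and ketone body formation. The list was set by gene name, but with earlier results of these data known, so the list as a whole was given no test. It held 29 genes: the regulator Ppara, 4 genes of fatty acid uptake and activation (Slc27a4, Fabp1, Acsl1, Acsl5), 3 of the carnitine shuttle (Cpt1a, Slc25a20, Cpt2), 5 acyl-CoA dehydrogenases (Acadvl, Acadl, Acadm, Acads, Acad11), 5 genes of the later steps of the spiral (Echs1, Hadha, Hadhb, Hadh, Acaa2), 3 enzymes for double bonds (Eci1, Eci2, Decr1), 3 of electron transfer (Etfa, Etfb, Etfdh), 2 ketone body dehydrogenases (Bdh1, Bdh2) and 3 enzymes that release or recycle coenzyme A (Acot1, Acot2, Vnn1). All 29 were found among the 55450 genes counted, and all 29 were among the 15808 genes that passed the filter on low counts. Fatty acids are joined to coenzyme A, carried into the mitochondrion as carnitine esters and shortened step by step to acetyl-CoA, which the liver turns into ketone bodies when food is scarce. The nuclear receptor PPARα, product of Ppara, binds fatty acids and activates transcription of many of these genes.

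Female C57BL/6 mice gave the livers, with 5 mice to a group, 3 groups and 1 sample to a mouse. In the Adult group (A1 to A5), 6-month-old animals entered the study and were gavaged daily with vehicle, corn oil. The Old group (O1 to O5) entered at 22 months and had the same vehicle. The PDX group (P1 to P5) also entered at 22 months and was given Protectin DX, a lipid mediator made from docosahexaenoic acid, at 30 ng/g of body weight in corn oil. The gavage lasted 9 weeks by the treatment protocol and 8 weeks by the series description. No adult mouse was given PDX, so the PDX and Adult groups differed in both age and treatment. Between 22424383 and 36070835 read pairs per mouse were counted on genes, and levels are given as CPM, the counts of a gene scaled to a common library size with trimmed mean of M-values (TMM) factors. The liver label was met in every mouse by albumin (Alb), which ranged from 34724 to 180125 CPM. In bulk tissue, fewer cells of a type and less RNA per cell cannot be told apart. Mice were euthanized in batches, and the batch of each mouse is not given in the sources used here.

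Most of the 29 genes had lower mean levels in both older groups than in the Adult mice, and the Old mice were spread widely. The CPM summed over the list was 11689, 10576, 10437, 11021 and 10530.3 in A1 to A5, 11276, 4584, 9426, 8542 and 4478 in O1 to O5 and 7296, 6135, 8092, 8146 and 8308 in P1 to P5. The 5 PDX mice lay below the 5 Adult mice without overlap, whereas O1 lay within the Adult range and O2 and O5 below every other mouse. Without Fabp1, the gene with the highest CPM of the list in all mice but O5, the sums were 8058 to 8405 in Adult, 3331 to 7314 in Old and 4951 to 6471 CPM in PDX (lowest to highest mouse), and both older groups then lay below Adult without overlap. A PDX mouse had 23 to 26 of the 29 genes below the Adult range, where 23.8% to 30.2% of all genes tested were, and an Old mouse had 13 (O1) to 29 (O2), where 26.9% to 39.4% of all genes were. These values are shown in the heatmap of the 29 genes by mouse.

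**Figure D1:**
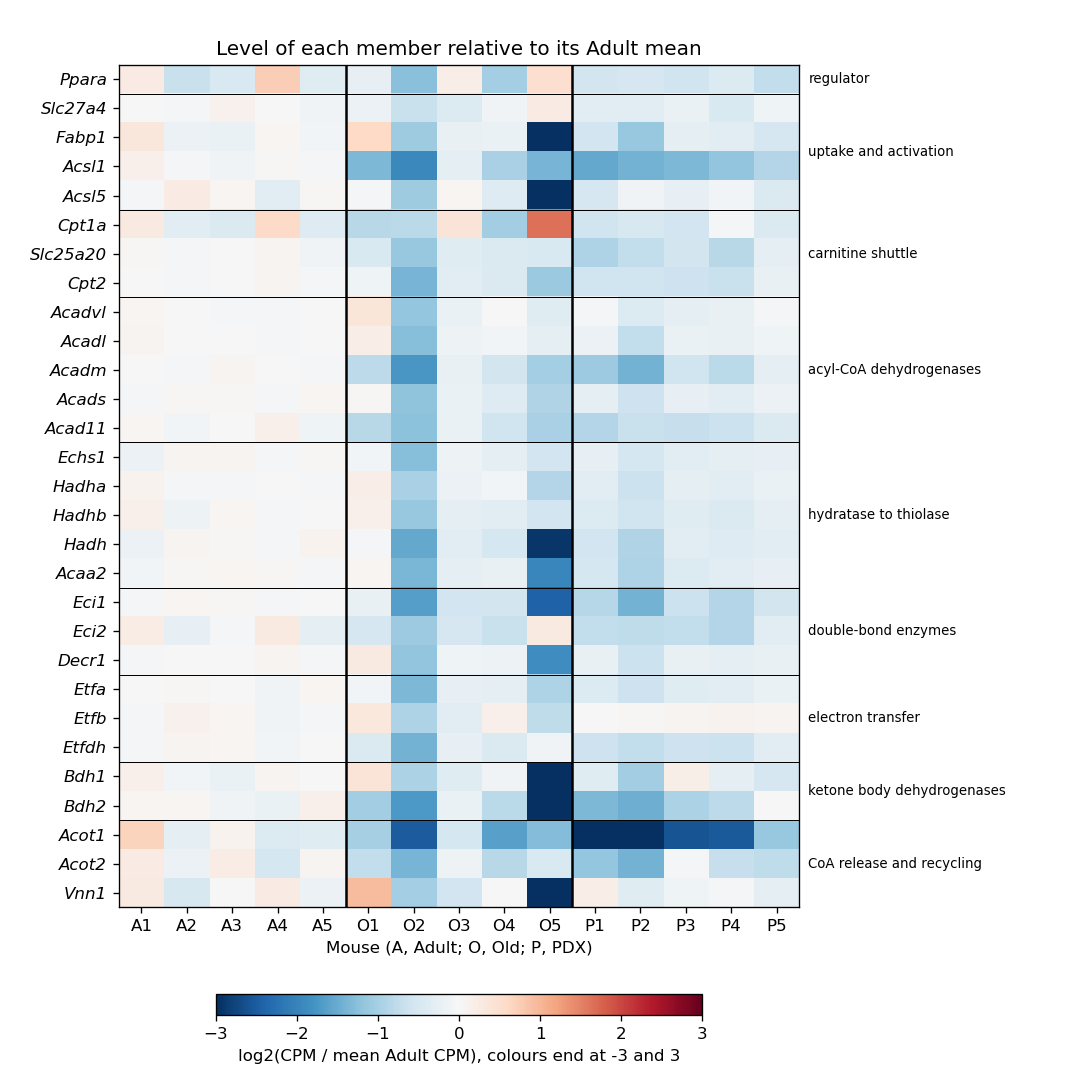
Level of each of the 29 genes (rows, by role) in each of the 15 mice (columns), as log2 of the CPM over the mean CPM of the 5 Adult mice, with colours ending at -3 and 3. The columns of O2 and P1 to P5 are blue for nearly all genes, O1 is mixed, and O5 holds dark blue cells (Fabp1, Acsl5, Hadh, Bdh1, Bdh2, Vnn1) beside the red cell of Cpt1a; the row of Acot1 is dark blue in P1 to P4.

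Between Old and Adult, 3 of the 29 genes had an adjusted p under the threshold of 0.05 (edgeR's quasi-likelihood test, adjusted over all 15808 genes), and all 3 were lower in Old mice: Acsl1, Slc25a20 and Acad11. Over all genes tested, 6.78% passed in either direction and 2.07% were lower. At an unadjusted p under 0.05, 14 of the 29 were lower and 0 higher, against 9.81% lower over all genes. The median log2 fold change of the 29 was -0.46, with 28 below 0 and Cpt1a above it, and the median over all genes was 0.068. For 9 of the 29 (Acsl1, Slc25a20, Cpt2, Acadm, Acad11, Eci1, Etfdh, Bdh2, Acot1) every Old mouse lay below every Adult mouse, where 4.48% of all genes did so. The 3 calls were lost when any single Adult mouse was left out (0 of 29 in each case, with 0.299% to 0.404% of all genes called lower) and when the fit held only the Old and Adult mice (0 of 29, with 9 lower at an unadjusted p under 0.05, where 6.34% of all genes were; 0.146% of all genes were called lower), and they became 6 when O3 was left out (4.99% of all genes lower). The Wald test of DESeq2 also called 6, all lower (3.86% of all genes).

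Between PDX and Adult, 3 of the 29 genes also passed, Acsl1, Slc25a20 and Acot1, all lower in PDX mice. Over all genes tested, 2.66% passed in either direction and 0.898% were lower. At an unadjusted p under 0.05, 11 were lower and 0 higher (9.41% of all genes lower). The median log2 fold change was -0.47, with 28 of 29 below 0 and Etfb above it, against -0.014 over all genes. For 21 of the 29 genes every PDX mouse lay below every Adult mouse, where 9.34% of all genes did so. The exceptions were Ppara, Acsl5, Cpt1a, Etfb, Bdh1, Bdh2, Acot2 and Vnn1. The number of calls depended on whether the Old mice, with their wide spread, shared the fit: with the 10 mice of both groups alone, 21 of 29 passed, all lower (13.5% of all genes lower), and with all groups but without O2 and O5, 19 passed (10.2% lower). DESeq2 called 7, all lower (2.85% of all genes). In edgeR's fit of all groups, 0 passed without P1 (0.286% of all genes lower), 1 without P2 (0.267%), 8 without O2 (3.29%) and 7 without O5 (5.53%), so the count of the list and the share of all genes moved in the same direction. Both of these comparisons use the same Adult mice.

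Between PDX and Old, 0 of the 29 genes had an adjusted p under 0.05 or 0.25 by edgeR, as was so for all 15808 genes (0% called), and 0 of the 29 by DESeq2 (0.00344% of all genes). Acot1 was the 1 gene with an unadjusted p under 0.05, against 5.28% of all genes. The fold changes were split, 15 below 0 and 14 above, with a median of -0.0087, and no gene separated the groups without overlap (0.196% of all genes did so in the lower direction). This split depended on which mice were in the fit: 23 of the 29 were below 0 without O2 (median -0.17) and 19 without O5, but 10 without O1 (median 0.16), 12 without O3, 11 without O4 and 8 without P2 (median 0.074). O2 and O5 had the lowest sums of the list of all mice, so leaving both out raises the Old mean of most of its genes by construction. The values without them follow in part from this choice and cannot be read as an effect of PDX. Without both O2 and O5, all 29 fold changes between PDX and the 3 other Old mice were below 0. The median log2 fold change was -0.23, against -0.0094 over all genes, of which 51.9% were below 0. In that fit 8 of the 29 had an unadjusted p under 0.05, all lower (2.92% of all genes): Fabp1, Acot1, Hadha, Decr1, Eci1, Hadhb, Acaa2 and Acsl1. Their log2 fold changes ran from -1.39 for Acot1 to -0.27 for Hadhb, the smallest adjusted p was 0.374 (Fabp1), and 0 of the 29 passed at 0.25. For Fabp1, Hadha and Decr1 all PDX mice lay below O1, O3 and O4 (1.43% of all genes). The same exclusion moved the median between Old and Adult to -0.22, with 21 genes below 0 and 8 above it and 3 calls (Acsl1, Acad11 and Eci2, 2.26% of all genes lower).

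**Figure D2:**
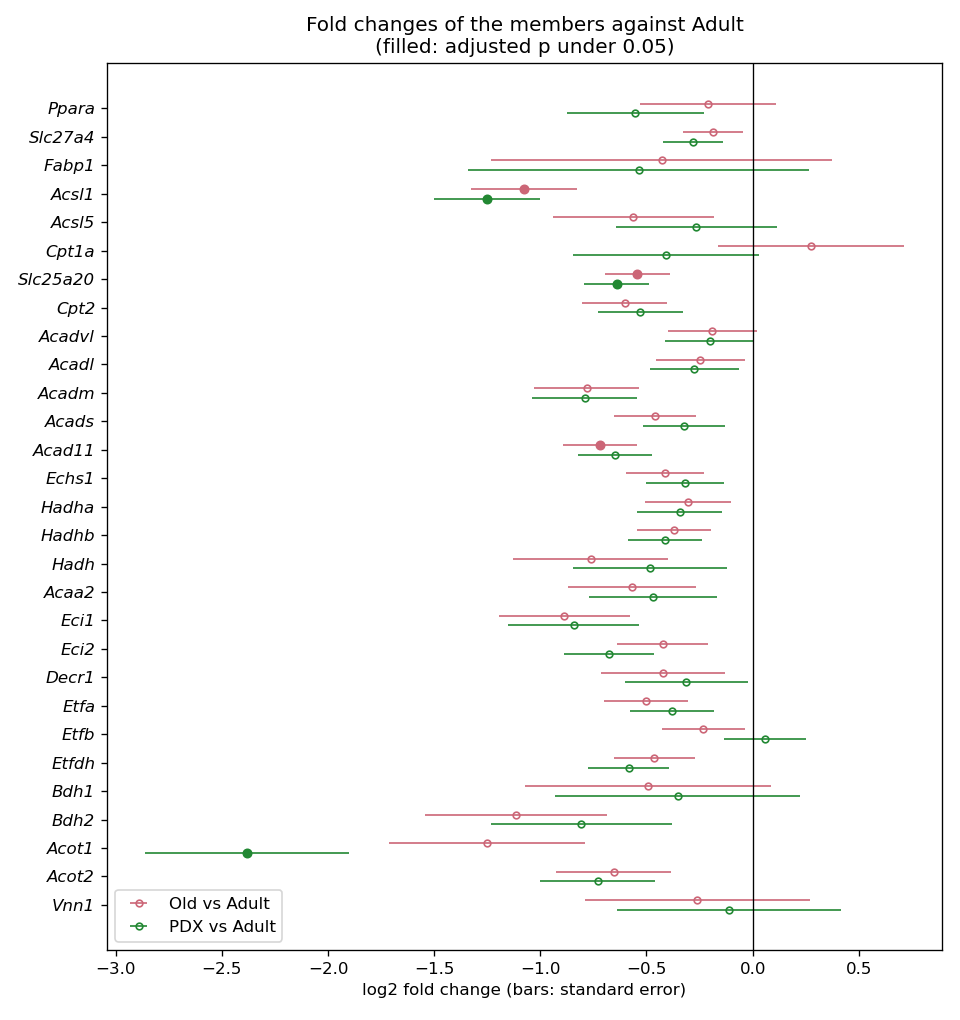
log2 fold change of each of the 29 genes against Adult (x axis, bars give the standard error from edgeR's fit of 15 mice), for Old mice and PDX mice, with filled points where the adjusted p was under 0.05. Nearly all points lie left of 0; Acsl1 and Slc25a20 are filled in both comparisons, Acad11 in Old and Acot1 in PDX, and Fabp1, Cpt1a, Bdh1 and Vnn1 have wide bars.

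The regulator Ppara (ENSMUSG00000022383, chromosome 15 of GRCm38, 85734983 to 85802819) did not pass a test in any comparison. It was at 22.3, 11.8, 13.8, 31.7 and 14.6 CPM in A1 to A5, 15.8, 7.93, 21.6, 9.36 and 26.7 in O1 to O5 and 12.8, 13.3, 12.5, 14.3 and 11.4 in P1 to P5. The PDX mice lay close together near the low end of the Adult range, and the Old mice were spread on both sides of them. The log2 fold change was -0.21 in Old against Adult and -0.55 in PDX against Adult, and the latter was -0.29 without A4, the highest mouse.

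In uptake and activation, the long-chain acyl-CoA synthetase Acsl1, which joins fatty acids to coenzyme A, was the 1 gene that passed (ENSMUSG00000018796, chromosome 8, 46471037 to 46536051). Its CPM was 1239.7, 1077, 1030.0, 1129 and 1069 in A1 to A5, 437, 291, 915, 564 and 422 in O1 to O5 and 384, 417, 433, 491 and 602 in P1 to P5. All 10 older mice were below all Adult mice, with O3 nearest to them. Acsl1 fell by 1.08 on the log2 scale in Old (standard error 0.25, adjusted p = 0.0264) and by 1.25 in PDX (standard error 0.25, adjusted p = 0.0156), and PDX against Old gave -0.18. Leaving out 1 mouse moved the adjusted p in Old between 0.00277 and 0.0638 and that in PDX between 0.00282 and 0.0528. The related synthetase Acsl5 showed no such separation: it ranged from 593 to 877 CPM in Adult, 92.8 to 782 in Old and 522 to 707 in PDX, with log2 fold changes of -0.56 and -0.26 against Adult.

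Fabp1, the fatty acid binding protein of the hepatocyte cytosol, had the highest level of the 29 per length of exon (4726 CPM per kb on average in Adult mice, followed by the thiolase Acaa2 at 693). Its CPM was 3284, 2295, 2290.2, 2727 and 2472 in A1 to A5, 3961, 1253, 2232, 2261 and 4.26 in O1 to O5 and 1762, 1184, 2137, 2094 and 1837 in P1 to P5. O1 held the highest value of all mice, O5 had almost none, and all PDX mice were below all Adult mice. With this spread, the log2 fold change was -0.43 in Old and -0.54 in PDX. In the fit of the PDX and Adult mice alone, Fabp1 was among the genes that passed. Slc27a4, a fatty acid transport protein, lay between 43.7 to 51.3 CPM in Adult, 29.5 to 55.7 in Old and 34.2 to 42.5 in PDX (log2 fold changes -0.19 and -0.28 against Adult).

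**Figure D3:**
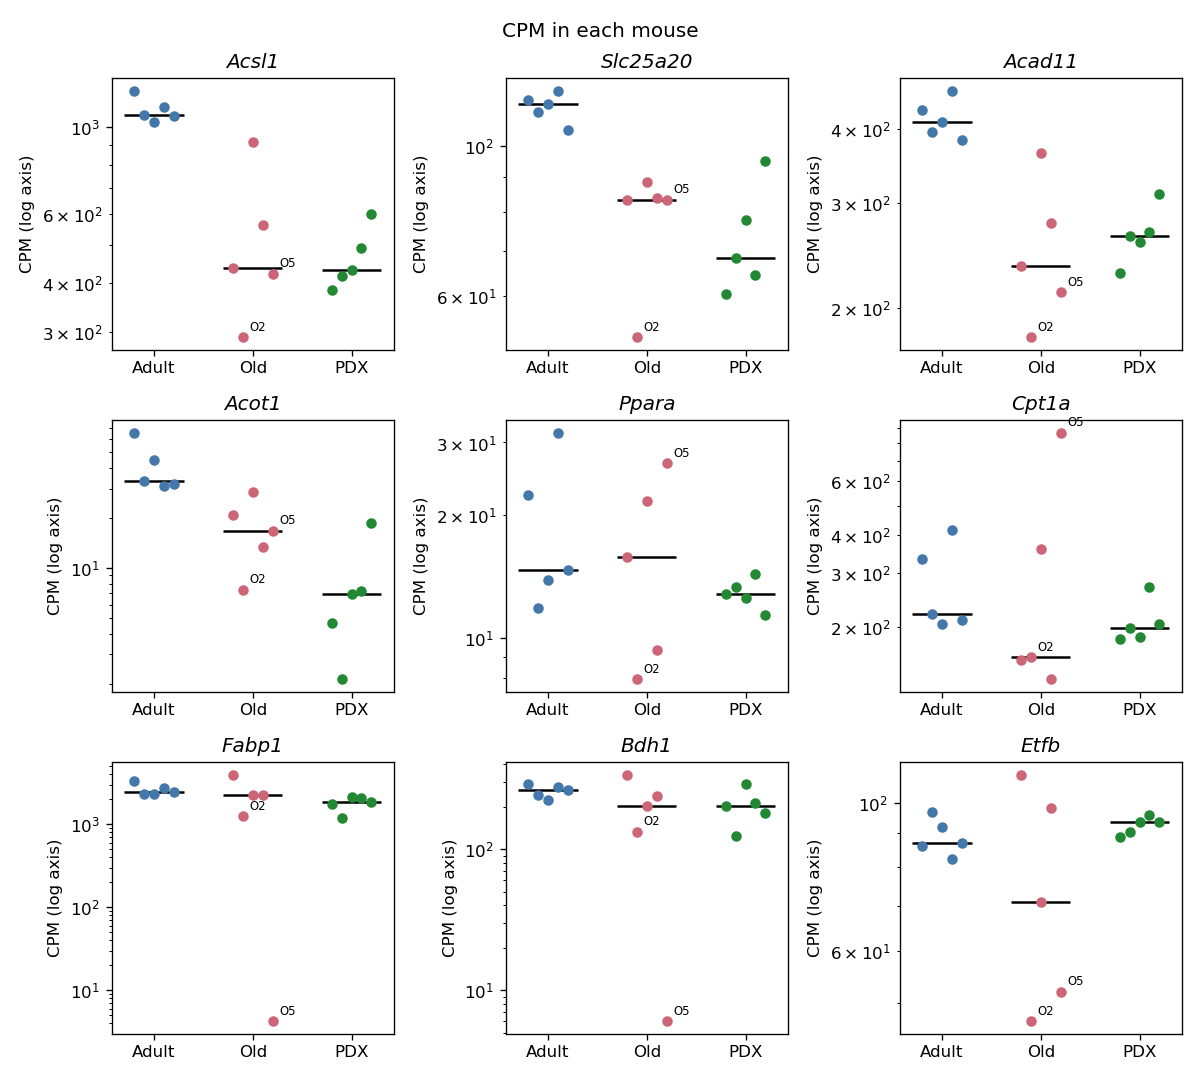
CPM (log axis) of Acsl1, Slc25a20, Acad11, Acot1, Ppara, Cpt1a, Fabp1, Bdh1 and Etfb in each mouse; points are mice, horizontal lines are group medians, and O2 and O5 are marked. The Old and PDX points of Acsl1, Slc25a20, Acad11 and Acot1 lie below all Adult points, O5 is highest for Cpt1a and near the bottom of the axis for Fabp1 and Bdh1.

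The carnitine shuttle held a gene that fell in both older groups and a gene that did not. Slc25a20, the carnitine-acylcarnitine translocase of the inner membrane (ENSMUSG00000032602, chromosome 9, 108662088 to 108684641), was at 117, 112, 115, 121 and 105 CPM in A1 to A5, 83.4, 52.2, 88.5, 83.9 and 83.4 in O1 to O5 and 60.5, 68.3, 77.8, 64.5 and 95.1 in P1 to P5. Neither older group overlapped with Adult, and O2 stood below the 4 other Old mice, which lay between 83.4 and 88.5. The gene fell by 0.54 in Old (standard error 0.15, adjusted p = 0.0463) and by 0.64 in PDX (standard error 0.15, adjusted p = 0.0375) on the log2 scale. Leaving out 1 mouse moved the adjusted p in Old between 0.0315 and 0.0999, with a log2 fold change of -0.42 without O2. In PDX it moved between 0.00538 and 0.105, the latter without P1. The call of Slc25a20 in Old was also lost with RLE factors (adjusted p = 0.0506), upper-quartile factors (0.061), a minimum count of 50 (0.0555) and no filter on low counts (0.0778), and that in PDX with upper-quartile factors (0.0604) and no filter (0.0682).

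Cpt1a, which makes the carnitine esters at the outer membrane and sets the rate of entry (ENSMUSG00000024900, chromosome 19, 3322334 to 3385733), was at 334, 222, 204, 415 and 211 CPM in A1 to A5, 157, 159, 361, 135 and 865 in O1 to O5 and 184, 199, 186, 271 and 205 in P1 to P5. O1, O2 and O4 lay below the Adult range, O3 within it and O5 above it. The log2 fold change in Old was therefore 0.28 with all mice and -0.45 without O5; in PDX it was -0.41 against Adult (-0.22 without A4) and -0.69 against Old. Cpt2, its partner on the inner membrane, was lower in every Old mouse (53.6 to 128 CPM) and every PDX mouse (87.8 to 119.8) than in any Adult mouse (137 to 149). Its log2 fold changes, -0.60 and -0.53, did not pass the adjusted threshold (adjusted p = 0.0722 and 0.151).

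The acyl-CoA dehydrogenases carry out the first oxidation of the spiral, each for a range of chain lengths. Acad11, a less studied relative (ENSMUSG00000090150, chromosome 9, 104063377 to 104127725), was at 432, 396, 412, 465 and 383 CPM in A1 to A5, 235, 178, 365, 278 and 212 in O1 to O5 and 229, 264, 258, 269 and 312 in P1 to P5. All older mice were below all Adult mice. It fell by 0.72 in Old (standard error 0.17, adjusted p = 0.0292); in PDX the log2 fold change was -0.65 (adjusted p = 0.0591). Of the 50-base windows of its coding transcripts, 12.8% also occur, on either strand, in other genes (Ackr4 and Gm28305). Whether this sharing changed the counts of Acad11 was not tested.

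For the medium-chain enzyme Acadm, the CPM ranged from 373 to 402 in Adult, 114 to 329 in Old and 144 to 312 in PDX, and neither older group overlapped with Adult. Its log2 fold changes were the largest of the 4 chain-length enzymes, -0.78 in Old (adjusted p = 0.0644) and -0.79 in PDX (adjusted p = 0.0986). The very long-chain enzyme Acadvl gave -0.19 and -0.20. For the long-chain enzyme Acadl the values were -0.25 and -0.27. The short-chain enzyme Acads gave -0.46 and -0.33. For these 3 the PDX mice lay below the Adult mice without overlap, while O1 was above or within the Adult range. None of the 4 chain-length enzymes passed the adjusted threshold in the fit of all groups. Of the 50-base windows of Acadvl, 23.5% also occur, on either strand, in Dvl2, and an effect on its counts was not tested.

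The 5 genes of the later steps of the spiral had fold changes below 0 in both older groups, and none passed the adjusted threshold. Hadha, the α subunit of the mitochondrial trifunctional protein, ranged from 448 to 503 CPM in Adult, 238 to 536 in Old and 297 to 405 in PDX (log2 fold changes -0.30 and -0.34 against Adult). Hadhb, the β subunit, gave -0.37 and -0.41. The log2 fold changes of the hydratase Echs1 were -0.41 and -0.32. The hydroxyacyl-CoA dehydrogenase Hadh gave -0.76 and -0.48, and the thiolase Acaa2 -0.57 and -0.47. All 5 genes had every PDX mouse below every Adult mouse, and none had every Old mouse so.

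The 2 subunits of the trifunctional protein were counted at very different levels. Hadhb was at 28.9 to 35.9 CPM in Adult mice and Hadha at 448 to 503 CPM, which per kb of exon was 4.89 against 53.3 on average. Of the 50-base windows of the coding transcripts of Hadhb, 57.5% also occur in other genes, 56.6% in the pseudogene Gm13910, and pairs that align to both places were not counted. Gm13910 itself, looked up after these values were seen, was counted at 88.8 to 107 CPM in Adult, 42.0 to 111 in Old and 54.7 to 77.7 in PDX, and was lowest in O2 and highest in O1 like Hadha. The ratio of Hadhb to Hadha CPM was 0.0636 to 0.0748 in Adult, 0.0589 to 0.0843 in Old and 0.0630 to 0.0717 in PDX. The level of Hadhb is thus uncertain.

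Of the enzymes that handle double bonds, Eci1 and Eci2, which shift them, were lower in every PDX mouse than in any Adult mouse. Eci1 ranged from 137 to 149 CPM in Adult, 26.7 to 122 in Old and 53.6 to 97.0 in PDX (log2 fold changes -0.89 and -0.84, adjusted p = 0.0821 and 0.142). Eci2 ranged from 122 to 179.9, 70.9 to 181 and 81.5 to 119 CPM (-0.42 and -0.68, adjusted p = 0.209 and 0.1). In O5 these isomerases parted, Eci1 at 26.7 CPM being the lowest of the 15 mice and Eci2 at 181 the highest. The dienoyl-CoA reductase Decr1 gave -0.42 in Old and -0.31 in PDX.

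The electron transfer genes pass electrons from the dehydrogenases to ubiquinone, and their 3 members did not move alike. Etfdh, the ubiquinone oxidoreductase, ranged from 336 to 376 CPM in Adult, 133 to 328 in Old and 213 to 282 in PDX, with both older groups below Adult (log2 fold changes -0.46 and -0.58, adjusted p = 0.13 and 0.109). Etfa, the α subunit of the flavoprotein, gave -0.50 and -0.38. Etfb, the β subunit (ENSMUSG00000004610, chromosome 7, 43444083 to 43457800), was at 86.0, 96.6, 91.9, 82.3 and 87.1 CPM in A1 to A5, 110.1, 47.0, 70.9, 98.1 and 52.1 in O1 to O5 and 88.8, 90.3, 93.4, 95.9 and 93.5 in P1 to P5. It was the 1 gene of the list that was not lower in PDX than in Adult mice on average (0.057), while O2, O3 and O5 lay below both groups and O1 and O4 above the Adult mice. An overlapping gene on the same strand, Gm45233, holds 57.7% of the windows of Etfb and was itself counted at no more than 0.146 CPM, so the level of Etfb is uncertain.

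For ketone bodies, Bdh1, which converts acetoacetate to 3-hydroxybutyrate in the mitochondrion, ranged from 224 to 288 CPM in Adult, 6.02 to 337 in Old and 125 to 289.9 in PDX, and the groups overlapped. Its log2 fold changes were -0.49 and -0.35. Of the 50-base windows of Bdh1, 11.85% also occur, on either strand, in Gm15743, and an effect on its counts was not tested. Bdh2, a cytosolic relative at low level, ranged from 11.9 to 15.1 CPM in Adult, 1.12 to 11.8 in Old and 4.94 to 13.6 in PDX, and every Old mouse was below every Adult mouse (-1.11, adjusted p = 0.109). P5 reached the Adult range for Bdh2, and the fold change in PDX was -0.81.

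The acyl-CoA thioesterase Acot1, which frees fatty acids from coenzyme A in the cytosol, had the largest fold change of the list (ENSMUSG00000072949, chromosome 12, 84009490 to 84018371). Its CPM was 65.2, 33.5, 44.9, 31.1 and 32.2 in A1 to A5, 20.9, 7.37, 28.6, 13.3 and 16.7 in O1 to O5 and 4.66, 2.13, 6.91, 7.22 and 18.7 in P1 to P5. Old mice lay below Adult mice without overlap, and 4 of the 5 PDX mice lay below every Old mouse, P5 being the exception. Acot1 fell by 2.38 on the log2 scale in PDX against Adult (standard error 0.48, adjusted p = 0.0162), and the mean in PDX mice was 19.1% of that in Adult mice. Against Old, the log2 fold change in PDX was -1.13 (unadjusted p = 0.0282, adjusted p = 0.793), and in Old against Adult it was -1.25 (adjusted p = 0.0974). Leaving out 1 mouse moved the value in PDX against Adult between -2.98 (without P5) and -2.14 (without P2), and the call was lost without P1 (adjusted p = 0.0526).

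The mitochondrial thioesterase Acot2 was lower on average in both older groups (-0.65 and -0.73, adjusted p = 0.133 and 0.146), with P3 inside the Adult range. Acot1 and Acot2 lie near each other on chromosome 12 and share 50-base windows (23.5% of those of Acot1 and 24.5% of those of Acot2), so that their counts leave out pairs that align to both. With all other genes, 32.7% of the windows of Acot1 and 27.7% of those of Acot2 were shared. The neighbours Acot3 and Acot4, looked up after the values of Acot1 were seen, were lower on average in both older groups, Acot3 at 42.9% of the Adult mean in Old and 37.8% in PDX mice and Acot4 at 63.0% and 61.5%. Vnn1, a pantetheinase that recycles a precursor of coenzyme A, ranged from 39.8 to 66.8 CPM in Adult, 3.17 to 108 in Old and 42.9 to 64.0 in PDX (-0.26 and -0.11), with the groups overlapping.

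O2 and O5 stood apart from the other Old mice in different ways, which the plot of both mice against O1, O3 and O4 shows. In O2 the 29 genes were low together: all 29 were under the mean of O1, O3 and O4, at ratios of 0.352 to 0.738 (median 0.474), and 24 of them were below each of the 13 mice other than O5, which was so for 21.5% of all genes. Over all genes tested, the median ratio in O2 was 0.980. The 6 hepatocyte markers were low in O2 as well, at ratios of 0.304 (Cps1) to 0.575 (Apoa1), with Alb at 0.455. In O5 the genes parted. Fabp1 was at a ratio of 0.00151, Bdh1 at 0.0232, Vnn1 at 0.0473, Bdh2 at 0.128, Acsl5 at 0.134 and Hadh at 0.161. Cpt1a stood at 3.97, Eci2 at 1.77, Ppara at 1.71 and Slc27a4 at 1.40. In all, 22 of the 29 were below each of O1, O3 and O4 in O5 (40.5% of all genes) and 5 above each of them (37.1%). These are single mice, so the ratios carry no replicate error.

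**Figure D4:**
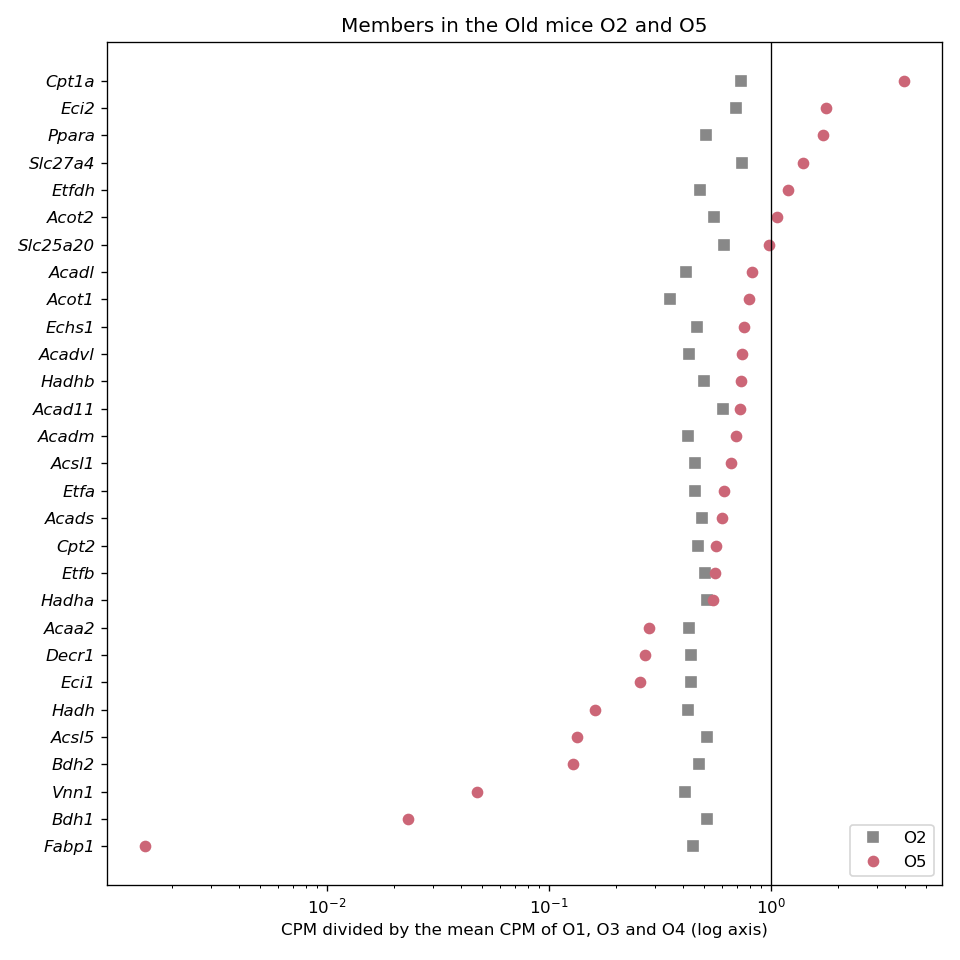
CPM of each of the 29 genes in O2 (squares) and O5 (circles) divided by the mean CPM of O1, O3 and O4 (log axis; the line marks equal levels), ordered by O5. The squares lie in a narrow band from 0.352 to 0.738, whereas the circles run from 0.00151 for Fabp1 to 3.97 for Cpt1a.

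Other measures of these livers also differed between the groups and in O2 and O5, not all in the order of the list's sum. In these lists a gene rose or fell if its adjusted p against Adult (edgeR) was under 0.05. Of all genes tested, 4.71% rose in Old and 1.76% in PDX, and 2.07% and 0.898% fell. Summed over 6 macrophage and Kupffer cell markers, the level was 380.4 to 555 in Adult, 245 to 2642 in Old and 638 to 1347 in PDX (CPM, lowest to highest mouse). O2 held the highest sum and O5 the lowest. Of the 6 markers, 1 (Gpnmb) rose in both older groups, and its own highest value of the 15 mice was in O5 (71.7 CPM). Of 5 tested neutrophil and myeloid markers, 5 rose in Old and 3 in PDX, with sums of 2.30 to 5.29 in Adult, 15.2 to 159.8 in Old and 35.2 to 175 in PDX (CPM, lowest to highest mouse). Ly6g, the defining marker of mature neutrophils, was at 0 in all Adult mice and at most 0.761 CPM in the older mice (O2). The T cell markers summed to 1.44 to 3.37 in Adult, 1.44 to 134 in Old and 4.13 to 13.5 in PDX (CPM, lowest to highest mouse), where O2 was highest with Cd4 at 116 CPM against at most 3.28 elsewhere. The 7 acute-phase genes, of which 4 rose in Old and 6 in PDX, summed to 7519 to 9023 in Adult, 10119 to 46203 in Old and 14210.0 to 47838 in PDX (CPM, lowest to highest mouse), with O5 and P2 highest. Fgb and Hp held most of this sum in Adult (means of 5669 and 2548 of 8328 CPM), and Fgb did not pass in either comparison with Adult. The 6 hepatocyte markers summed to 129994 to 141990.0 in Adult, 60087 to 202809 in Old and 109395 to 163231 in PDX (CPM, lowest to highest mouse), with O2 (76191) and O5 (60087) lowest of the 15 mice, as they were for the list, and 1 of the 6, Cyp2e1, fell in both older groups. Alb held most of the hepatocyte sum (mean 111332 of 135114 CPM in Adult). In O5 the 6 hepatocyte markers parted. Tat (13538 CPM) and Cps1 were at ratios of 5.61 and 1.25 to the mean of O1, O3 and O4. Alb, Ttr, Cyp2e1 and Apoa1 were at 0.241, 0.187, 0.396 and 0.663. O5 also had the most negative body weight change of the 15 mice (-3.55% per week on average) and the highest frailty index (0.56). By contrast, the weekly body weight change of O2 was 3.07%, and its frailty index (0.11) was the lowest of the Old mice. The part of these in the levels of the 29 genes was not tested.

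Marker lists for the remaining cell types gave 2 of 3 B and plasma cell markers higher in Old (Cd79a, Ms4a1) and 1 in PDX (Jchain), 1 of 3 stellate cell markers higher in Old (Col1a1), and 0 of 3 for cholangiocytes and 0 of 3 for endothelial cells in both comparisons. The share of all genes called higher was 4.71% in Old and 1.76% in PDX. Of the adipocyte markers none passed the low-count filter, with a sum of at most 1.82 CPM, and the 2 tested muscle markers gave 0 calls, with O4 highest at a sum of 106 CPM.

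Among the Adult mice, A1 and A4 held the highest 2 values for 11 of the 29 genes, including Ppara, Cpt1a, Fabp1, Acsl1 and Eci2, where 13.8% of all genes tested had this order. Ppara was at 22.3 and 31.7 CPM in these mice and between 11.8 and 14.6 in the other 3, and Cpt1a at 334 and 415 against 204 to 222. The order was noticed after the values were seen and was not tested.

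Further genes of the pathway were read from lists of their own. Of 5 other ketogenesis genes, 1 rose and 0 fell in each older group against Adult. The share of all genes that rose was 4.71% in Old and 1.76% in PDX. The monocarboxylate transporter Slc16a6 rose in both, by 1.96 (adjusted p = 0.028) and 1.82 (adjusted p = 0.0491) on the log2 scale.

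For the lists that follow, the share of all genes that fell was 2.07% in Old and 0.898% in PDX. Of 8 other mitochondrial acyl-CoA enzymes and regulators of entry, 1 fell in Old, the branched-chain dehydrogenase Acadsb (-0.97, adjusted p = 0.0321), and 0 passed in PDX, where Acadsb gave -0.86 (adjusted p = 0.0713). The 3 tested genes of carnitine supply gave 0 calls, with median log2 fold changes of -0.61 in Old and -0.43 in PDX. Of 9 other PPARα target genes, 1 fell in each comparison with Adult: Ehhadh, the bifunctional enzyme of peroxisomal β-oxidation (-1.32, adjusted p = 0.0151 in Old and -1.55, adjusted p = 0.00577 in PDX). The medians of these 9 were -0.77 and -0.82. Of 6 coregulators, 1 fell in each, the mitochondrial deacetylase Sirt3 (-0.81, adjusted p = 0.024 and -0.84, adjusted p = 0.0212). Between PDX and Old, 0 genes of these lists passed (0% of all genes).

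Reference promoters were read for the list, since PPARα binds repeats of the motif AGGTCA spaced by 1 base. RefSeq windows (GRCm38.p6, 250 bases before to 50 after the start) were used for 26 of the 29 genes, 28 windows in all. The windows of Slc25a20 and Acot1, which are 2 of the 4 called genes, and of Fabp1, the gene of highest level, which did not pass in the fit of all groups, are shown 5′ to 3′ on the gene's strand, the plus strand in all 3. Capitals mark GC boxes (GGGCGG) in Slc25a20, a CCAAT box and a GC box in Acot1, and AGGTCA and the looser repeat AGGNCANAGGNCA in Fabp1, searched on both strands. 
Slc25a20, chr9:108661886-108662185: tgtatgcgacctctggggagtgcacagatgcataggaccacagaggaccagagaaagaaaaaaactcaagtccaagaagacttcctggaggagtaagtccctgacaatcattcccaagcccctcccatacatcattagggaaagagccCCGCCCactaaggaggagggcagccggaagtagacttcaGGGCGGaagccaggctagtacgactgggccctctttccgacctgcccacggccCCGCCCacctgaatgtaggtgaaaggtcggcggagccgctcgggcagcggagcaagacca
Acot1, chr12:84009252-84009551: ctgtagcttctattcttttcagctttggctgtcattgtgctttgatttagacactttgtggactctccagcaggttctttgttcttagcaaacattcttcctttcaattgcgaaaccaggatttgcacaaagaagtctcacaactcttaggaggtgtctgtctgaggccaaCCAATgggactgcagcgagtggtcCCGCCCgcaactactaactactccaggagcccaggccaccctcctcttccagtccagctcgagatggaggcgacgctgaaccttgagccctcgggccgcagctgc
Fabp1, chr6:71199629-71199928: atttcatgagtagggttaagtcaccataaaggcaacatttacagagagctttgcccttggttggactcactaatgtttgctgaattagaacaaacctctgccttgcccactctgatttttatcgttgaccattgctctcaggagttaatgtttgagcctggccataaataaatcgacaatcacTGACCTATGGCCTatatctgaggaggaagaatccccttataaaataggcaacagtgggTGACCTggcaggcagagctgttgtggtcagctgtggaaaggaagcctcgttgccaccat

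The exact repeat AGGTCANAGGTCA was in 0 of the 28 windows and in 0.0396% of 32851 mouse windows. The looser repeat was in 1 window, that of Fabp1, where it overlaps an AGGTCA motif 67 to 55 bases before the start on the minus strand, and in 0.381% of all windows. AGGTCA alone was in 5 of the 28 (Acadm, Acadvl, Cpt1a, Echs1, Fabp1), or 17.9%, and in 16.3% of all windows. The GC box was in 19 of the 28 windows (67.9%), among them that of Slc25a20 with 3 copies, and in 35.7% of all windows. The CCAAT box was in 12 (42.9%) and in 37.4% of all windows. A match is a description of these letters in these windows. Hadha and Hadhb share a divergent promoter region, their RefSeq starts lying 273 bases apart on opposite strands of chromosome 5.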

How the data were processed

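Poly(A)-selected, strand-specific liver libraries were sequenced as paired ends. The authors aligned the reads to mm10 with STAR 2.6.0c and counted unique proper pairs per Ensembl gene with featureCounts (Subread 1.6.2), leaving out mitochondrial genes, and deposited raw counts per gene. Their variance-stabilized values were not used. Symbols came from GENCODE M21 for 55104 of 55450 gene IDs.

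Counts were fitted in edgeR 4.0.16 (quasi-likelihood F test, TMM factors, filterByExpr with minimum count 10 and minimum total 15) with 3 group coefficients over 15 mice. P-values were adjusted over 15808 genes with the Benjamini-Hochberg method, and the standard error is the fold change divided by the square root of F. The test was checked on simulated counts. These had the same spread per gene in every group, so the check did not cover the wider spread of the Old mice. Alternatives were DESeq2 1.42.0, other factors and filters, 2-group fits, a replicate block, and fits without each mouse or without O2 and O5. The gene list, the other lists and these alternatives were chosen with earlier results of these data known. Per-mouse values are given for genes that passed 0.05 in any comparison, for Ppara, Cpt1a and Fabp1, and for the 3 genes with the smallest p between PDX and Old. Of the other lists, called genes, up to 3 per list, are named, and 1 gene is not reported here. Shared windows were counted in GENCODE M21 transcripts, and promoters are from RefSeq, with no entry for Vnn1 and Decr1. Acaa2 was left out because windows on chromosome 18, where it lies, were not read for the list.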

Additional observations from a re-analysis of the deposited data

Results flagged for a closer look

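Among 87 combinations of gene and group, 10 held a mouse whose gap to its nearest neighbour was larger, relative to the range of the group, than Dixon's 95% limit for 5 samples. For a single combination chance flags about 1 in 20. The combinations share the same mice and are not independent, so the count of 10 cannot be read against that share. P2 was lowest of the PDX mice for Acadl (170 CPM, nearest other 243), Echs1 (236, nearest 272), Hadha (297, nearest 376) and Decr1 (119, nearest 154). P5 was highest of the PDX mice for Cpt2 (119.8 CPM, nearest 93.2), Eci2 (119, nearest 89.8) and Etfdh (282, nearest 233). P4 was highest for Cpt1a (271 CPM, nearest 205). In Old mice O2 was lowest for Slc25a20 (52.2 CPM, nearest 83.4), and in Adult mice A4 was highest for Cpt2 (149 CPM, nearest 139.8). P2 also held the highest sum of the acute-phase genes (47838 CPM) of the PDX mice; its part in the low values was not tested.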

How the results depend on the processing

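The sources used here do not say what the numbers that mice share across groups mean. Deviations from the group means of same-numbered mice correlated at -0.17 on average between Old and Adult (-0.22 to -0.11 over 5 pairs), 0.031 between PDX and Adult and 0.092 between PDX and Old. Differently numbered mice gave 0.044, -0.0078 and -0.022 on average. With 5 pairs per comparison, these values cannot show whether mice of the same number shared a batch. With the replicate number as a block, 0 of the 29 genes were called between Old and Adult (0.43% of all genes lower), 2 between PDX and Adult (0.626%) and 0 between PDX and Old (0%), and the median log2 fold changes were -0.56, -0.48 and 0.10. Between Old and Adult, the 3 calls became 1 with no filter on low counts (0.529% of all genes lower), 0 with the mice of both groups only and 6 with DESeq2, and ranged from 0 to 6 when 1 mouse was left out (0.299% to 4.99% of all genes lower). Between PDX and Adult, the 3 calls became 7 with DESeq2, 21 with the mice of both groups only and 19 without O2 and O5, and ranged from 0 to 8 when 1 mouse was left out (0.267% to 5.53%). RLE or upper-quartile factors and a minimum count of 50 gave 2 or 3 calls in each of these comparisons, Slc25a20 being the gene lost. The count of genes without overlap ranged from 9 to 18 between Old and Adult (18 without O1, 6.13% of all genes) and from 0 to 1 between PDX and Old (1 without P5, 0.493%) when 1 mouse was left out, and PDX and Old gave 3 without O2 and O5, an alternative to these counts that was added after seeing the data. That alternative leaves out the mice with the lowest sums of the list. Without O2 and O5 the log2 fold change between Old and Adult changed sign for Fabp1 (0.12), Cpt1a (-0.34), Acadvl (0.084), Acadl (0.0038), Hadha (0.0072), Decr1 (0.021), Etfb (0.078), Bdh1 (0.019) and Vnn1 (0.28), and that of Etfb between PDX and Old to -0.0034. Leaving out 1 mouse moved the value between Old and Adult from -0.47 to 0.053 for Ppara, from -0.45 to 0.49 for Cpt1a and from -0.83 to 0.041 for Vnn1, and that of Cpt1a between PDX and Old from -0.89 to 0.039. Between PDX and Adult it moved from -0.68 to -0.29 for Ppara and from -0.52 to -0.22 for Cpt1a. The cause was not tested, except that dropping O2 and O5 leaves 3 Old mice. Of the recomputed fold changes of single genes, 531 kept their direction and side of the threshold, 47 newly passed, 18 no longer passed and 14 changed sign. With at least 22424383 counted pairs per mouse, all 29 genes passed the filter on low counts.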
